A study of Mus musculus with 20 samples.

Results

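Myelin-rich and myelin-poor hippocampal libraries were compared within each treatment group of a mouse melanoma and immunotherapy experiment. The classes were chosen by the level of 1 transcript, Mbp (myelin basic protein), in CPM, the raw count divided by the library's total count and multiplied by 1000000. Within each of 4 groups of 5 libraries, the 2 libraries with the highest Mbp level were taken as rich and the 2 with the lowest as poor. This gave 8 rich and 8 poor libraries, 16 of the 20 in the series. The remaining 4, 1 per group, are called the middle libraries and belong to neither class. Mbp itself is described and not tested, and it was left out of every count of genes below.

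Each library was bulk RNA of a single fresh-frozen hippocampus from an adult male wild-type mouse aged 10 to 12 weeks, 1 mouse per library. The CONTROL group received isotype-matched antibody and carried no tumour. The CONTROL + ICI group received immune checkpoint inhibitors (ICI), which are antibodies that block brakes on T cells, here anti-CTLA-4 at 1 mg per dose 3 times a week and anti-PD-1 at 200 µg per dose 2 times a week, and carried no tumour. Both melanoma groups carried D4M-3A.UV2 tumours, a mouse melanoma line matched to the host strain, from intradermal injections of 500000 cells on both sides, 1 week before treatment began. The MELANOMA group then received isotype antibody, and the MELANOMA + ICI group the same antibody pair as above for 3 weeks. The treatment length of the other groups is not given separately in the labels. Tissue was collected from all mice 72 hours after their final antibody dose, and every antibody was given into the peritoneal cavity.

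Myelin is the lipid-rich sheath that oligodendrocytes wrap around axons. It is made of a small set of very abundant proteins, of galactolipids and of cholesterol. Oligodendrocytes mature from precursors through a newly formed stage, and the fully mature, myelinating cell switches on the myelin protein genes together under transcription factors that include Sox10 and Myrf. In the hippocampus, myelin is densest in the fibre tracts at its borders (the alveus and fimbria), which lie beside neocortex, thalamus and the choroid plexus. In bulk RNA, fewer cells of a type and less RNA per cell cannot be told apart.

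The sequences just upstream of the myelin protein genes with the strongest rise are shown because Sox10 and its relatives bind short ACAAAG- or ACAATG-like words. The 250 bases before the annotated start are RefSeq's, build GRCm38.p6, printed 5′ to 3′ on the gene's strand, and capitals mark a match to ACAAAG or ACAATG on either strand. The Gjb1 window is that of the last of its 4 listed starts, chosen for print because it alone holds both words (1 other holds ACAAAG and 2 hold neither), at chrX:101383482-101383731 on the plus strand, within the span of the gene's longer transcripts. The Ermn window is chr2:58052865-58053114 on the minus strand, the Cldn11 window chr3:31149670-31149919 on the plus strand and the Mog window chr17:37023399-37023648 on the minus strand.
Gjb1: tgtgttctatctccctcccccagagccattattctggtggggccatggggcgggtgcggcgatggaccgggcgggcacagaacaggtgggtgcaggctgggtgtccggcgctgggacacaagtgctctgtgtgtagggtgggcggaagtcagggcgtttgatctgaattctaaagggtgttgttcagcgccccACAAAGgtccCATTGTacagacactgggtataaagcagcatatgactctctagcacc
Ermn: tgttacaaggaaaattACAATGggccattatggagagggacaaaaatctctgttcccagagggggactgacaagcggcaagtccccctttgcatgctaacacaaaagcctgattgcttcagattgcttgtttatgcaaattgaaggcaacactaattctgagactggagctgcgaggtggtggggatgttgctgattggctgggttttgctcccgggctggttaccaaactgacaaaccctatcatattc
Cldn11: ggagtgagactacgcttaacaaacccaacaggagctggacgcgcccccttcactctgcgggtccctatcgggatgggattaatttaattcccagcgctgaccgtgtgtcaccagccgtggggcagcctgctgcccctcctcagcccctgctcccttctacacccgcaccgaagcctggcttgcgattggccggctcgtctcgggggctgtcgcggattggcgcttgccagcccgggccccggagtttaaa
Mog: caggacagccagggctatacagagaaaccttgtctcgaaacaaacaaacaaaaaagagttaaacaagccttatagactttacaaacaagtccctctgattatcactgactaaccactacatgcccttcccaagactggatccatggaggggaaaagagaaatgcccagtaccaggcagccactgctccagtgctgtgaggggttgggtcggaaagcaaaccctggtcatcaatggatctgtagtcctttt
Counted backwards from -1 at the base before the start, the Gjb1 window held ACAAAG at -57 and the reverse complement of ACAATG at -47. The Ermn window held ACAATG at -234, and neither word was in the Cldn11 and Mog windows. Of the 15 myelin protein genes that rose (below), 12 have a window in the table, with 18 starts among them. ACAAAG was in 8 of these 18 windows (44.4%), against 16.5% of 32851 windows of the same length over all genes. ACAATG was in 11.1% against 10.7%, the E-box word CAGCTG in 0 of 18 against 13%, and CTGGCAC, the core of the Myrf motif, in 16.7% against 4.19%. Several of these windows belong to 1 gene and overlap, and a match to such short words is a description of letters, not of a bound site.

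The Mbp level that defined the classes ran from 2536 to 4267 CPM in rich libraries (median 3816) and from 1403 to 3178 CPM in poor ones (median 2020). The ranking was made within groups, so the classes overlapped across them: 2 rich libraries lay below the highest poor library. The gap between classes differed by group. Mean Mbp was 2.35 times higher in rich than in poor CONTROL libraries, 1.74 times in CONTROL + ICI, 1.26 times in MELANOMA and 2.08 times in MELANOMA + ICI. At the border of the choice, the CONTROL + ICI middle library (2147 CPM) lay close to the higher of its 2 poor libraries (2027 CPM), and the MELANOMA middle library (3611 CPM) close to the lower of its 2 rich ones (3713 CPM). The group means were 2997 ± 1211 (CONTROL), 2359 ± 781 (CONTROL + ICI), 3546 ± 434 (MELANOMA) and 2682 ± 1015 CPM (MELANOMA + ICI; SD, n = 5 each). The plot of Mbp by library marks each of them.

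**Figure D1:**
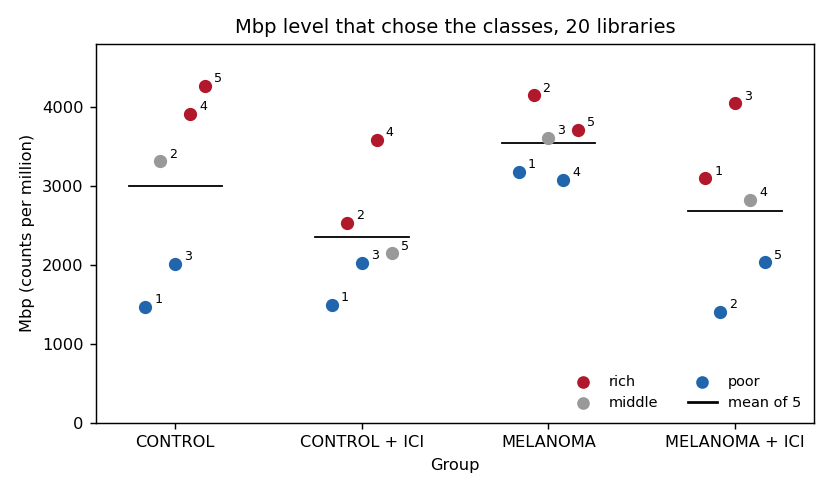
Mbp level (CPM, vertical axis from 0) in each of the 20 libraries by treatment group. Numbers are replicate numbers, red, grey and blue points are the rich, middle and poor libraries, and each bar is the mean of 5; the MELANOMA libraries lie closest together, with rich over poor at 1.26.

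Depth overlapped between the classes, and 2 rich libraries stood apart in their composition. The 16 libraries held 21990624 to 25735149 counts, and the mean total was 252673 counts higher in rich libraries (exact permutation test of classes within groups, two-sided p = 0.681). The mitochondrial share of counts was 3.69 ± 0.69% in rich and 3.41 ± 0.21% in poor libraries (SD, n = 8; exact permutation p = 0.201), and genes shorter than 1000 bases took 1.44 ± 0.29% and 1.29 ± 0.06% (exact permutation p = 0.188). The share of counts in the 10 most abundant genes is not used, since Mbp itself was among those 10 in 7 rich and 2 poor libraries. The smallest p that this design allows is 0.00154. Rich libraries CONTROL 4 and MELANOMA + ICI 1 stood apart, with 5.10% and 4.28% mitochondrial counts and 2.06% and 1.71% in short genes. Without them, the differences in these shares were 0.0238 and 0.0165 percentage points (exact permutation p = 0.657 and 0.602).

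Rich libraries carried more RNA of most of the mature oligodendrocyte genes listed, including 15 of 16 myelin protein genes besides Mbp. Of 18405 genes tested with edgeR's quasi-likelihood test with group as a covariate, 190 (1.03%) passed an adjusted p of 0.05. Among them, 156 (0.848%) were higher in rich libraries and 34 (0.185%) lower. The rises were larger than the falls, with median log2 fold changes of 0.64 and -0.39 against 0.02 over all genes tested. Only rises went past a log2 of 1, which 10 genes did. All 4 treatment groups showed the same sign for 155 of the 156 higher and 34 of the 34 lower genes, against 25.8% and 20% of all tested genes with a positive or negative fold change. Both rich libraries lay beyond both poor ones in all 4 groups for 132 and 21 of them, against 2.44% and 1.29% of those genes. The call itself favours genes that differ in every group, so these counts describe the called genes and lend them no support. The 4 middle libraries lay above the poor mean for 152 of the 156 higher genes, against 8683 of the 18405 tested, and below it for 33 of the 34 lower ones. They rank above the poor libraries in Mbp by the rule and are no outside check. The classes were picked on a gene that these genes can follow from library to library, so the test describes which genes went with Mbp and its p-values take no account of that choice.

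These counts were sensitive to single libraries. The total of 190 fell to 90 without CONTROL 1, 66 without CONTROL 3, 67 without CONTROL 5, 75 without CONTROL + ICI 1, 61 without CONTROL + ICI 4, 62 without MELANOMA + ICI 2, 81 without MELANOMA + ICI 3 and 93 without MELANOMA + ICI 5, and without MELANOMA 4 there were 101 higher and 12 lower. The 34 lower calls also became 17 without MELANOMA 2 and 12 without MELANOMA + ICI 1. With the scores of choroid plexus, striatum, neocortex and dentate gyrus genes as further covariates, 0 genes passed with edgeR, against 795 at an unadjusted p under 0.05.

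**Figure D2:**
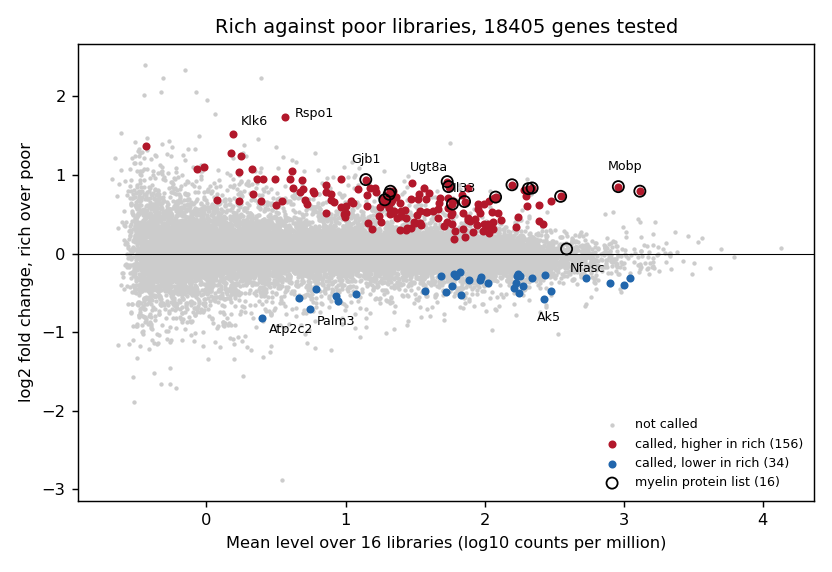
Each of the 18405 genes tested by its mean level over 16 libraries (horizontal, log10 CPM) and its log2 fold change of rich over poor (vertical). Red points are the 156 genes called higher and blue points the 34 called lower at an adjusted p of 0.05; circles mark the 16 myelin protein genes, which lie near 0.8 apart from Nfasc at 0.06.

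Of the 16 myelin protein genes besides Mbp, 15 rose in rich libraries, against a background of 0.848% of all genes called higher, with a median log2 fold change over the 16 of 0.79. Oligodendrocytes make these genes together with Mbp, which chose the classes, so their rise is no independent support for it. Cldn11 (chr3:31149920-31164324), the claudin that seals the myelin wraps, ranged from 136 to 239 CPM in rich libraries (median 211) and from 76.6 to 182 CPM in poor ones (median 103.4). Within each group both rich libraries lay above both poor ones, and across groups the classes overlapped, because the poor MELANOMA libraries (172 and 182 CPM) lay above the lowest rich library. Cldn11 had a log2 fold change of 0.87 with an SE of 0.14 (adjusted p = 0.0125).

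Mobp and Mal were higher as well. Mobp, a small basic protein of the compact sheath, ranged from 863 to 1423 CPM in rich and from 413 to 1137 CPM in poor libraries (log2 fold change 0.85, adjusted p = 0.0268). Mal, a proteolipid of membrane sorting, was higher by 0.83 on the log2 scale (adjusted p = 0.0125). Both were higher in the 2 rich than in the 2 poor libraries of every group, and both overlapped between classes across groups.

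Among adhesion and surface proteins, Mag, which holds the innermost wrap to the axon, ranged from 184 to 324 CPM in rich and from 103.99 to 208 CPM in poor libraries (log2 fold change 0.83 ± 0.14, SE; adjusted p = 0.0126). Mog, on the outer face of the sheath, ranged from 49.0 to 85.0 CPM in rich and from 27.7 to 58.4 CPM in poor libraries (log2 fold change 0.85 ± 0.14, SE; adjusted p = 0.0125). Opalin, a sialylated membrane protein of mature oligodendrocytes, had a log2 fold change of 0.79 (adjusted p = 0.0186). Mag and Mog separated the classes within all 4 groups, and Opalin within 3.

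Connexins, which couple oligodendrocytes to other glia, were among the genes that rose. Gjb1 (connexin 32; chrX:101376378-101385629) had the largest log2 fold change of the list at 0.94 ± 0.11 (SE; adjusted p = 0.00265). As for Ermn and Pllp, its classes did not overlap even across groups, and it had 15.8 to 22.5 CPM (median 18.6) in rich and 7.24 to 11.4 CPM (median 9.65) in poor libraries. Gjc3 (connexin 29) was higher by 0.63 on the log2 scale (adjusted p = 0.0268). Ermn (chr2:58045113-58052864), a cytoskeletal protein of late oligodendrocytes, also separated fully, with 58.2 to 83.0 CPM against 26.7 to 52.7 CPM, a log2 fold change of 0.91 with an SE of 0.12 (adjusted p = 0.00503).

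Cnp, the myelin-associated phosphodiesterase, had a log2 fold change of 0.73 (adjusted p = 0.0111), and Tspan2, Pllp and Cryab, a small heat shock protein, had 0.72, 0.68 and 0.66. Cnp and Pllp each overlap a gene on the opposite strand, and whether the counts used strand is not given in the sources used here. Nfasc (neurofascin), which both neurons and oligodendrocytes make, was the member that did not pass, at 0.06 (adjusted p = 0.917). Its 2 lowest values, 180 and 197 CPM, were in CONTROL 4 and MELANOMA + ICI 1, the rich libraries with the high mitochondrial share, while the other 6 rich libraries had 415 to 525 CPM and the poor ones 317 to 447 CPM. Without those 2 libraries Nfasc had a log2 fold change of 0.29 (adjusted p = 0.0401). The calls of Opalin, Gjc3 and Mobp were lost in 4, 6 and 8 of the 16 fits that each left out 1 library (adjusted p up to 0.0736), all among CONTROL 1, 3 and 5, CONTROL + ICI 1 and 4, and MELANOMA + ICI 2, 3 and 5.

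**Figure D3:**
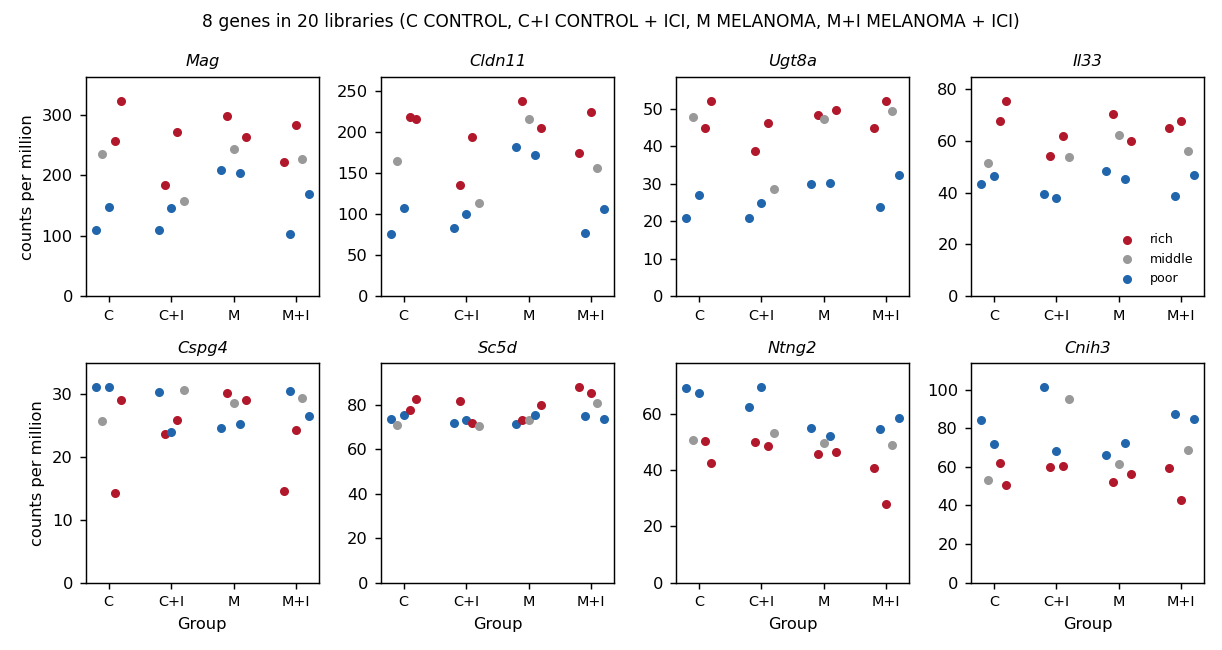
Level (CPM, vertical axes from 0) of 8 genes in each of the 20 libraries by treatment group, coloured by class. Mag, Cldn11, Ugt8a and Il33 have both rich points above both poor points in all 4 groups, Ntng2 and Cnih3 have them below, and the classes mix for Cspg4 and Sc5d, which did not pass.

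Mature oligodendrocyte genes outside the sheath proteins followed. Of 29 enzymes, carriers, receptors and cytoskeletal genes, 19 rose, 0 fell and 10 did not pass (median log2 fold change 0.63), against 0.848% of all genes called higher and 0.185% lower; 1 gene, Gjc3, is also in the myelin protein list. Lpar1 (chr4:58435255-58553898), a receptor for lysophosphatidic acid, ranged from 28.7 to 41.2 CPM in rich and from 17.2 to 28.1 CPM in poor libraries and so did not overlap (log2 fold change 0.69 ± 0.08, SE; adjusted p = 0.00177). S1pr5, the oligodendrocyte receptor for sphingosine-1-phosphate, was higher by 0.69 (adjusted p = 0.0111). Aspa, which breaks down N-acetylaspartate, ranged from 15.5 to 22.5 CPM in rich and from 8.62 to 13.4 CPM in poor libraries (log2 fold change 0.83, adjusted p = 0.00885). Tmem88b, a membrane protein, had a log2 fold change of 0.83 (adjusted p = 0.0064). The summed level of this list overlapped widely (2742 to 5478 CPM in rich and 1925 to 3912 CPM in poor libraries). Of its members, Trf, Ptgds and Enpp2 are also made by choroid plexus or meninges.

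Genes of both lipid arms of myelin were examined. Of 11 genes for galactolipids and long-chain lipids, Ugt8a, Fa2h and Gal3st1 rose and 0 fell (median log2 fold change 0.39), while of 20 genes for cholesterol synthesis and uptake 0 rose and 0 fell (median 0.07, 14 positive). Of all genes tested, 0.848% were called higher, so a count of 0 among 20 is near the background. With edgeR 3 of the 20 were under an unadjusted p of 0.05, against 2668 of all 18405 genes tested. DESeq2 and limma voom called 0 of the 20. Ugt8a (chr3:125865271-125938619), which adds galactose to ceramide in the first step to the myelin galactolipids, had one of the smallest p-values among all genes. It ranged from 38.8 to 52.2 CPM in rich (median 47.3) and from 21.0 to 32.4 CPM in poor libraries (median 26). The classes did not overlap, and the log2 fold change was 0.84 ± 0.09 (SE; adjusted p = 0.00177). Fa2h, which makes the 2-hydroxylated form of the same lipids, had a log2 fold change of 0.77 with an SE of 0.13 (adjusted p = 0.0125). Gal3st1, which sulphates them to sulphatide, had 0.50 ± 0.11 (SE; adjusted p = 0.0455), a call lost in 13 of the 16 fits that left out 1 library. In the cholesterol arm, Sc5d, a late desaturase, had 71.7 to 88.0 CPM in rich and 71.4 to 75.5 CPM in poor libraries (log2 fold change 0.11, adjusted p = 0.328). Idi1, an early isomerase, had a log2 fold change of 0.19 (adjusted p = 0.384). Neurons and astrocytes make cholesterol too. Whether the 2 lists differ from each other was not tested.

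Of 11 oligodendrocyte transcription factors, Nkx6-2, Sox10, Sox8 and Olig1 rose and 0 fell (median log2 fold change 0.37), against 0.848% of all genes called higher and 0.185% lower. Sox10, the lineage factor kept through maturation, ranged from 55.0 to 83.6 CPM in rich and from 40.3 to 56.5 CPM in poor libraries (log2 fold change 0.49 ± 0.09, SE; adjusted p = 0.0178). The classes separated within every group and overlapped slightly across them. Olig1, present from precursor to mature cell, had a smaller log2 fold change of 0.37 with an SE of 0.07 (adjusted p = 0.0269), and Sox8, a relative of Sox10, had 0.40 ± 0.09 (SE; adjusted p = 0.0451). Nkx6-2, a homeobox factor of myelinating cells, had 0.83 (adjusted p = 0.0125), but genes on the opposite strand overlap it, so its counts are uncertain. The call of Sox10 was lost without MELANOMA + ICI 2 (adjusted p = 0.0514), that of Olig1 in 8 and that of Sox8 in 12 of the 16 fits.

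Earlier stages of the lineage were examined next. Of 14 precursor genes 0 rose and 0 fell, a count near the background of 1.03%, with a median log2 fold change of -0.04 and 6 positive. With edgeR 2 of the 14 were under an unadjusted p of 0.05, against 2668 of all 18405 genes tested. DESeq2 and limma voom called 0 of the 14. Cspg4, the NG2 proteoglycan of precursors, had 14.2 to 30.2 CPM in rich and 24.1 to 31.2 CPM in poor libraries (log2 fold change -0.25, adjusted p = 0.479). Its 2 lowest values, 14.2 and 14.7 CPM, were again in CONTROL 4 and MELANOMA + ICI 1, and the other 6 rich libraries overlapped with the poor ones. Of 10 genes of newly formed oligodendrocytes, Enpp6 and Bcas1 rose and 0 fell (median 0.01), against 0.848% of all genes called higher. Enpp6, a choline phosphodiesterase of the newly formed stage, had a log2 fold change of 0.87 with an SE of 0.16 (adjusted p = 0.0252), lost in 7 of the 16 fits, all among the 8 libraries listed for the myelin proteins. Bcas1, which is made in newly formed cells and kept in mature myelin, had 0.80 ± 0.13 (SE; adjusted p = 0.0124). Fyn and Mycl, of the same list, were lower without passing (log2 fold changes -0.11 and -0.36, adjusted p = 0.345 and 0.236).

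**Figure D4:**
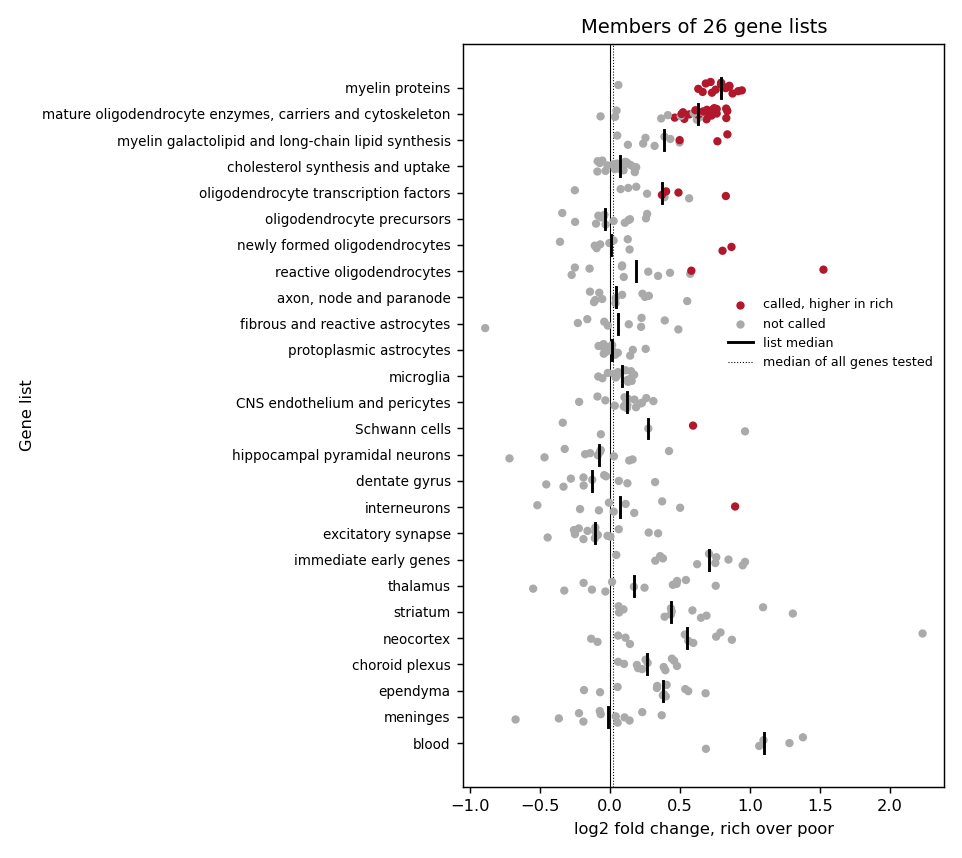
Log2 fold change of rich over poor (horizontal) for the tested members of 26 gene lists, one point per gene. Red points passed an adjusted p of 0.05, grey points did not, black bars are list medians and the dotted line is the median of all genes tested (0.02); the called members sit mainly in the top rows, with medians of 0.79 and 0.63.

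Il33 and Klk6 were the called members among 12 genes linked to reactive oligodendrocytes, of which 0 fell (median log2 fold change 0.18), against 0.848% of all genes called higher and 0.185% lower. Il33 (chr19:29925114-29960718), an alarm cytokine stored in the nucleus of oligodendrocytes in the adult mouse brain, ranged from 54 to 75.4 CPM in rich (median 66.2) and from 38 to 48.3 CPM in poor libraries (median 44.4). The classes did not overlap, and the log2 fold change of 0.58 with an SE of 0.06 (adjusted p = 0.00177) came with one of the smallest p-values of all genes. Klk6, a secreted protease of mature oligodendrocytes, was scarce, with 1.52 to 2.93 CPM in rich and 0.25 to 1.82 CPM in poor libraries, and had a log2 fold change of 1.52 with an SE of 0.30 (adjusted p = 0.0275). Its call was lost in 8 of the 16 fits, with the same 8 libraries left out. H2-D1 and B2m, of class I antigen presentation, had log2 fold changes of 0.43 and 0.34 without passing with edgeR (adjusted p = 0.0735 and 0.119). DESeq2 called both higher, against 464 of all 16264 genes it tested, and limma voom called neither.

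Across all 20 libraries, with group means removed, the genes whose level ran most closely with Mbp included Cldn11, Plekhb1, Mag, Cnp, Mog, Fa2h and Bcas1, out of 15485 genes ranked. Pearson's r ran from 0.994 for Cldn11 to 0.983 for Bcas1, as a description over libraries that share their scaling and that include the 16 used to form the classes. The level of the myelin protein list changed by 0.84 log2 units per log2 unit of Mbp, the mature oligodendrocyte list by 0.66, the galactolipid list by 0.44, the transcription factor list by 0.35, and the precursor list by -0.09. Cldn11 followed Mbp one to one, with a slope of 1.01. Other lists also had steep slopes, 1.08 for choroid plexus, 0.82 for blood, 0.57 for ependyma and 0.55 for immediate early genes, with Pearson's r of 0.26 to 0.48, against 0.83 to 0.99 for the 4 oligodendrocyte lists with positive slopes named here. All are descriptions without a test.

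**Figure D5:**
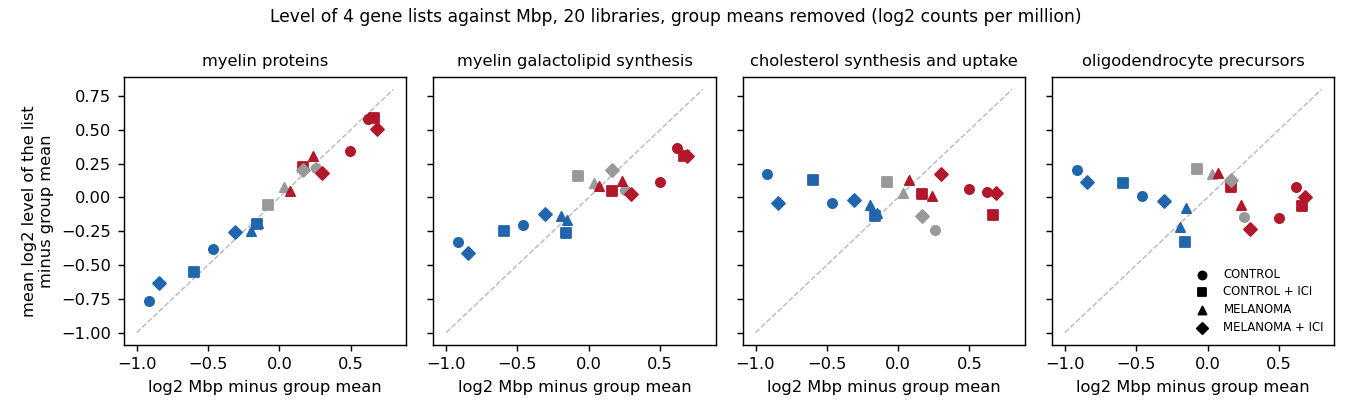
Mean log2 level of 4 gene lists (vertical) against log2 Mbp (horizontal), each minus its group mean, in 20 libraries. Colours are classes (red rich, grey middle, blue poor), symbols are groups, and the dashed line is equal change; the slope is 0.84 for myelin proteins, 0.44 for the galactolipid list, -0.04 for the cholesterol list and -0.09 for the precursor list.

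Lists of other cell types were examined in the same way, against 1.03% of all genes called in either direction, so that a count of 0 in lists of this size is near the background. An unadjusted p under 0.05 with edgeR was reached by 2668 of all 18405 genes tested. With edgeR 0 of the 10 fibrous and 13 protoplasmic astrocyte genes, 14 microglial genes, 16 endothelial and pericyte genes and 12 axonal and nodal genes passed in either direction, with median log2 fold changes of 0.06, 0.01, 0.08, 0.12 and 0.04, and 1, 1, 0, 3 and 4 of them were under an unadjusted p of 0.05. With limma voom 0 passed. With DESeq2 Glul of the protoplasmic astrocyte list and Cntn2 of the axonal list passed as higher, against 464 of all 16264 genes it tested. Without CONTROL 4 and MELANOMA + ICI 1, Cntn2 and the vascular genes Abcc9, Flt1 and Slco1a4 passed as higher with edgeR. In that fit 443 of all 18595 genes tested were called higher. Of 5 tested Schwann cell genes, the myelin-making glia of nerves, Pmp22 alone rose (log2 fold change 0.59, adjusted p = 0.0126), and central glia and vessels make Pmp22 too. Prx, a defining Schwann gene, had 3.42 CPM in poor and 2.73 CPM in rich libraries on average without passing (adjusted p = 0.412). Median log2 fold changes of the neuronal lists were -0.08 for 12 pyramidal neuron genes, -0.13 for 11 dentate gyrus genes and -0.11 for 15 excitatory synapse genes, with 0 called by edgeR (2, 1 and 5 under an unadjusted p of 0.05), and 0.07 for 10 interneuron genes, of which 1 (Pvalb) rose. With DESeq2 the pyramidal Grik4 and the synaptic Slc17a7 and Syn1 passed as lower, against 360 of all 16264 genes. Syp passed as lower with edgeR without CONTROL 4 and MELANOMA + ICI 1, against 245 of all 18595 genes. With limma voom 0 genes of these 3 lists passed.

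The largest rises included genes with no place in the oligodendrocyte lists. Rspo1, a secreted enhancer of Wnt signalling, had the largest log2 fold change among the named genes that passed, 1.74 ± 0.36 (SE; adjusted p = 0.0338). It ranged from 1.76 to 12.2 CPM in rich (median 4.93) and from 0.76 to 2.98 CPM in poor libraries (median 1.34). Within the rich class, CONTROL 4 and 5 and MELANOMA + ICI 1 and 3 had 7.13 to 12.2 CPM, and the other 4 rich libraries 1.76 to 2.72 CPM, within the range of the poor ones. Pvalb, the calcium buffer of fast-spiking interneurons, showed the same 4 libraries on top, with 47.0 to 66.9 CPM against 19.1 to 34.6 CPM in the other rich and 14.0 to 27.1 CPM in the poor libraries (log2 fold change 0.89, adjusted p = 0.0455). Those 4 libraries also had the highest summed levels of 12 neocortical marker genes in the rich class, 475 to 665 CPM, against 271 to 391 CPM in the other 4. The poor library CONTROL 1 had 479 CPM of the same list with 27.0 CPM of Pvalb and 1.68 CPM of Rspo1.

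Tissue that borders the hippocampus was measured by lists of 12 or 13 marker genes. With edgeR 0 members passed in either direction, a count near the 1.03% of all genes called. Under an unadjusted p of 0.05 were 6 neocortical, 5 thalamic, 0 striatal and 0 choroid plexus genes, against 2668 of all 18405 genes tested. With limma voom 0 passed, and with DESeq2 the neocortical Ddit4l, Lamp5 and Tshz2 passed as higher, against 464 of all 16264 genes it tested. At least 1 neocortical gene passed in 3 and at least 1 thalamic gene in 2 of 28 alternative fits. The summed neocortical list ranged from 271 to 665 CPM in rich and from 246 to 479 CPM in poor libraries (median log2 fold change 0.55, 10 of 12 positive). The choroid plexus list ranged from 49.1 to 5191 CPM in rich and from 25.5 to 3668 CPM in poor libraries (median 0.26), the striatal list from 216 to 1013 CPM and from 225 to 754 CPM (median 0.44), and the thalamic list from 196 to 394 CPM and from 195 to 386 CPM (median 0.17). The groups went opposite ways: in CONTROL, CONTROL + ICI, MELANOMA and MELANOMA + ICI the median was 0.74, 2.04, -1.37 and -0.11 for choroid plexus and -0.17, -0.02, 0.46 and 1.41 for striatum. No gene of any of these lists was at 0 in every library of a class. With the 4 tissue scores named above as covariates, the log2 fold change of Rspo1 was 0.99 and that of Pvalb 0.27, that of Cldn11 0.61 and that of Ugt8a 0.72, and none of the 4 passed (adjusted p = 0.907 for all 4). The calls of Rspo1 and Pvalb were also lost in 11 and 13 of the 16 fits that left out 1 library.

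Immediate early genes, which neurons switch on within minutes of activity, had a median log2 fold change of 0.71, with 11 of 11 positive. With edgeR 0 passed, near the background of 1.03%. An unadjusted p under 0.05 was reached by 8 of the 11, against 2668 of all 18405 genes tested. Limma voom called 0, and DESeq2 called Egr1, Ier2 and Nr4a1 higher, against 464 of all 16264 genes it tested. Arc ranged from 103.96 to 412 CPM in rich and from 50.2 to 194 CPM in poor libraries (log2 fold change 0.95 ± 0.30, SE; adjusted p = 0.157), and with the tissue scores as covariates its value was -0.40. The 5 red blood cell genes had a median of 1.10, with summed levels of 15.1 to 45.7 CPM in rich and 1.46 to 35.4 CPM in poor libraries. Of these 5, edgeR and limma voom called 0 (5 under an unadjusted p of 0.05 with edgeR), and DESeq2 called Hba-a2 and Hbb-bt higher. The part of neighbouring tissue, blood and activity in the differences between the classes was not tested beyond these values.

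Several further rises were of scarce or uncharacterised transcripts. Tnfaip6, a hyaluronan-binding protein, did not overlap between classes, with 9.85 to 15.3 CPM in rich and 4.47 to 9.46 CPM in poor libraries (log2 fold change 0.95 ± 0.15, SE; adjusted p = 0.0124). Shisa8, of a family that modulates AMPA-type glutamate receptors, had 2.17 to 4.90 CPM and 0.96 to 2.48 CPM (log2 fold change 0.95, adjusted p = 0.0125). Tnni1 (a troponin), Lrrc38, Tmem232, Cyp2j12, Gm13293, C030029H02Rik and A230001M10Rik had log2 fold changes of 0.94 to 1.24, all at mean levels of a few CPM. Gm26673 had 1.28 but is overlapped by genes on the opposite strand, and C030029H02Rik overlaps a gene on its own strand, so both are uncertain. Gm26673, Tnni1, Lrrc38, Tmem232 and A230001M10Rik lost their call in 9 to 12 of the 16 fits.

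Of the 34 genes lower in rich libraries 0 belong to the 26 lists, which hold 328 of the 18405 genes tested (1.78%), so that a count of 0 is near that share. Ntng2, netrin-G2, a synaptic adhesion protein anchored in the axonal membrane, ranged from 28.1 to 50.3 CPM in rich (median 46.1) and from 52.1 to 69.5 CPM in poor libraries (median 60.5). The classes did not overlap, and the log2 fold change was -0.49 ± 0.08 (SE; adjusted p = 0.0135). A gene on the same strand overlaps Ntng2. Cnih3, an auxiliary subunit of AMPA-type glutamate receptors, ranged from 42.6 to 61.8 CPM in rich and from 66.2 to 101 CPM in poor libraries, again without overlap (log2 fold change -0.53 ± 0.09, SE; adjusted p = 0.0169). Its call was lost without MELANOMA + ICI 2 (adjusted p = 0.0514).

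Ak5, an adenylate kinase of brain, ranged from 116 to 285 CPM in rich and from 255 to 352 CPM in poor libraries (log2 fold change -0.58, adjusted p = 0.0393). Sstr3, the somatostatin receptor of neuronal cilia, was lower by a log2 fold change of -0.48 (adjusted p = 0.029), and Adam11, a neuronal surface protein of the ADAM family, by -0.47 (adjusted p = 0.0412). Atp2c2, a calcium and manganese pump, had the largest fall among the named genes that passed, at -0.82 ± 0.17 (SE, adjusted p = 0.0362). It had only 0.84 to 2.60 CPM in rich and 2.5 to 4.63 CPM in poor libraries. Palm3, Ybx2, Tfr2, Gm14286, A230077H06Rik and D430019H16Rik also fell, with log2 fold changes from -0.70 to -0.50. Apart from Ntng2 and Cnih3, each of the 12 named falls lost its call in 8 to 13 of the 16 fits. A230077H06Rik and Ak5 overlap genes on the opposite strand.

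The rich-minus-poor difference was then compared among the 4 treatment groups. Of 19246 genes tested for a group-by-class interaction with edgeR (3 numerator degrees of freedom, 8 residual), 0 passed an adjusted p of 0.05 (smallest 0.999), 530 were under an unadjusted p of 0.05, and DESeq2 called 8 and limma voom 0. The myelin protein list had a median log2 difference of 1.13 in CONTROL, 0.74 in CONTROL + ICI, 0.41 in MELANOMA and 0.82 in MELANOMA + ICI. This list had its largest difference in CONTROL and its smallest in MELANOMA, as Mbp did, and the values describe the choice of libraries. The 3 genes with the smallest unadjusted interaction p were Lcn2, an acute-phase lipocalin, Rassf3 and Nptx2, a neuronal pentraxin. Lcn2 ranged from 0 to 3.39 CPM in rich and from 0 to 2.81 CPM in poor libraries, with high values in poor MELANOMA (2.48 and 2.81 CPM) and in rich MELANOMA + ICI libraries (3.39 and 2.18 CPM).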

How the data were processed

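RNA was measured in 20 hippocampal libraries, and the deposited tables hold 1 raw count per gene for 49671 genes, per the labels and file headers. Tools named without a role in the submitters' processing notes are STAR 2.5.2b and DESeq2 1.16.1. The genome build, annotation and use of strand are not given in the sources used here. Of the gene IDs, 49412 are in GENCODE M21 (GRCm38), 45214 with the same start and end, and symbols come from there; 259 IDs (0.0415% of counts) have no symbol.

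The members and the gene lists were chosen with earlier results of these data known. Libraries were ranked by Mbp CPM within title groups. Genes with low counts were removed with edgeR's filterByExpr (minimum count 10, minimum total 15), libraries were scaled by TMM (factors 0.970 to 1.03), and edgeR 4.0.16 in R 4.3.3 fitted group and class with robust quasi-likelihood dispersions in the 16 libraries. Log2 fold changes are rich minus poor; p-values are two-sided and adjusted by Benjamini-Hochberg over all genes tested, with a threshold of 0.05. The interaction added group-by-class terms. SE is the log2 fold change divided by the square root of F. The script was tested on simulated data. Library measures were compared by exact permutation within groups.

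Named genes were the 12 largest called changes in each direction with a mean of at least 1 CPM, all tested myelin proteins, up to 4 members of each list by smallest p, the 8 genes most like Mbp, and the 3 smallest interaction p-values. Alternatives were DESeq2 1.42.0, limma 3.58.1 (voom), other scaling, no filter, a replicate block, other definitions of the classes, tissue scores as covariates and leaving out libraries. Some genes that the rule names are not reported here. Abcc9, Flt1 and Syp fall outside the rule and were named after their values were seen. All replicate numbers come from the titles. Libraries of a group came from separate brains, per the labels. No 2 libraries of a group agreed within sampling noise (chi-square per gene 10.5 to 120 over 40 pairs).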

Additional observations from a re-analysis of the deposited data

Results flagged for a closer look

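Among 142 sets of 8 values examined, 7 had a highest or lowest library far from the other 7, and chance alone flags about 1 in 20 such sets. Among rich libraries, MELANOMA + ICI 3 had the lowest Ntng2 level, 28.1 CPM, with the next at 40.8 CPM. The highest Ybx2 level in rich libraries was 9.98 CPM, with the next at 7.46 CPM. The summed level of the reactive oligodendrocyte list was lowest at 272.7 CPM in 1 rich library (next 328.5 CPM) and at 241 CPM in 1 poor library (next 286 CPM). Among poor libraries, MELANOMA + ICI 2 had the highest Rspo1 level, 2.98 CPM, with the next at 1.74 CPM. The summed striatal list was highest at 754 CPM in the poor library MELANOMA 1, with the next poor library at 270.3 CPM. The summed neocortical list was highest at 479 CPM in the poor library CONTROL 1, with the next at 355 CPM.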

How the results depend on the processing

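The direction of the named, called genes did not reverse in the 28 alternatives in which it was compared. The fit with log2 Mbp as a number was not among these. Of the 56 named, called genes, 29 kept their call in all 16 fits that left out 1 library. Over the same 28 alternatives the size of the change moved more for some genes than for others. The log2 fold change of Tmem232 ran from 0.27 to 1.58, that of Sox8 from 0.10 to 0.49 and that of Cryab from 0.59 to 0.75. The number of calls moved as well. From 190 calls (156 higher, 34 lower), it was 824 with DESeq2 (464 higher, 360 lower; 189 of the 190 among them), 688 without CONTROL 4 and MELANOMA + ICI 1 (443 higher, 245 lower), 864 with log2 Mbp as a number over 20 libraries (453 higher, 411 lower), and 0 in either direction both with 1 library per class and group (3359 at an unadjusted p under 0.05) and with the 4 tissue scores as covariates (795), the latter 2 with edgeR and no other tool run. Lower calls alone moved to 64 without a filter, 64 with the middle library as its own class, 7 when another gene took the place of Mbp in the ranking, and 18 without the MELANOMA group, an alternative chosen after seeing the data. Leaving out 1 library gave 61 to 244 calls (58 to 199 higher, 3 to 51 lower) and 0 interaction calls throughout. The interaction gave 0 calls in the main analysis, 8 with DESeq2 and 686 without a filter, where genes with few counts enter. The cause of these shifts was not tested. The replicate block gave 307 calls (223 higher, 84 lower; 134 shared). The replicate numbers name samples only: of 30 same-numbered pairs 10 had a correlation of deviations over 0.1 (-0.35 to 0.53), and 6 of 20 libraries correlated best with their own number. Depth was at least 21990624 counts in each of the 16 libraries, and its effect on the calls was not examined.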

Other observations

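Values not used in a comparison follow. Of 10 interneuron genes, Pvalb was called; the list's other members included Npy (log2 fold change 0.50, adjusted p = 0.171) and Reln (-0.52, adjusted p = 0.401). The ependymal list summed to 41.5 to 106 CPM in rich and 27.8 to 80.1 CPM in poor libraries (median log2 fold change 0.38). The meningeal list summed to 135 to 370 CPM and 86.9 to 458 CPM (median -0.01). In each, 0 members were called by edgeR, DESeq2 or limma voom. With edgeR 1 ependymal and 0 meningeal genes were under an unadjusted p of 0.05, against 2668 of all 18405 genes tested. The middle libraries had 114 to 216 CPM of Cldn11 and 28.6 to 49.5 CPM of Ugt8a, from near the poor to within the rich range.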
